A study of Mus musculus with 12 samples.

Results

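The 7 genes described here make up the core of MHC class II antigen presentation: *H2-Aa*, *H2-Ab1*, *H2-Eb1*, *Cd74*, *Ciita*, *H2-DMa* and *H2-DMb1*. They were chosen by symbol, after matching Ensembl identifiers to mouse symbols. All 7 were found among the 16152 genes of the count table and the 51825 genes of the CPM table, and all 7 were among the 15994 genes tested. RNA was sequenced from bulk whole lungs of wild-type C57BL/6 mice of both sexes, with no treatment, at 2 embryonic (E15.5 and E18.5) and 2 postnatal (P5 and P8) time-points, with 3 replicates at each and 12 libraries in all. Replicates of a time-point came from 1 litter, so p-values measured the spread between litter-mates, and litter and time-point cannot be told apart. In bulk tissue, fewer cells of a type and less RNA per cell cannot be told apart either.

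MHC class II molecules present peptides from endosomes to CD4+ T cells. An α and a β chain (*H2-Aa* with *H2-Ab1*, and *H2-Eb1* with an α chain of its own) are assembled with the invariant chain *Cd74*, which guides them to endosomes, where cathepsin S cleaves it and H2-DM (*H2-DMa* with *H2-DMb1* or *H2-DMb2*) exchanges its last fragment for a peptide. Transcription depends on *Ciita*, a coactivator that binds no DNA itself but docks on RFX, CREB and NF-Y proteins at the X and Y boxes of class II promoters. Class II is best known on dendritic cells, B cells, activated macrophages and thymic epithelium, and in the lung also on alveolar type II (AT2) epithelial cells.

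The Y box, to which NF-Y binds, was found in most of the members' listed promoters. In RefSeq windows of GRCm38.p6 running from 250 bases before to 50 after each gene start, 4 of the 7 members had an entry (*H2-Aa*, *H2-Eb1*, *H2-DMa* and *H2-DMb1*), and *H2-Ab1*, *Cd74* and *Ciita* had none. The Y box was searched as TGATTGG and the X box as CCNAGNNAC, on both strands. Only exact matches were counted, so a box that differs by a letter was missed. A promoter without a match cannot be said to lack the box. *H2-Aa* and *H2-Eb1* are shown as an α and a β chain with a Y box. *H2-Ob*, a related class II gene, is shown as one with an X box 15 to 30 bases before the Y box. The *H2-Aa* window also held 1 X box match, but not in this arrangement. The member *H2-DMb1*, which has the arrangement, is not shown. The sequences run from base 110 to base 31 before the start, 5′ to 3′ on the gene strand, with capitals for the Y box and for an X box that precedes it by 15 to 30 bases.
H2-Aa: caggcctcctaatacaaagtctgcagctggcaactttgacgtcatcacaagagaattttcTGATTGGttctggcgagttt
H2-Eb1: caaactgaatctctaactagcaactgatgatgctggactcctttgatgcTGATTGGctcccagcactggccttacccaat
H2-Ob: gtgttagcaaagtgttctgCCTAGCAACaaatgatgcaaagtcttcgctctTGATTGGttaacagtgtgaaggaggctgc
The *H2-Aa* sequence lies at chr17:34287854-34287933 on the minus strand, that of *H2-Eb1* at chr17:34305757-34305836 on the plus strand and that of *H2-Ob* at chr17:34238795-34238874 on the plus strand. The Y box began 50 bases before the start in *H2-Aa*, 61 in *H2-Eb1*, 63 in *H2-DMb1* and 59 in *H2-Ob*, and 8.2% of the 27025 promoters of the same length held these letters. An X box, found in 17.4% of all promoters, preceded the Y box with 26 bases between them in *H2-DMb1* and *H2-Oa* and 23 in *H2-Ob*, an arrangement held by 7 of the 27025 promoters (0.0259%). Neither of the 2 windows listed for *H2-DMa* held either motif, but only 3 of its 8 Gencode transcripts start inside them.

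The libraries held between 41337443 and 53901957 reads on the 16152 genes (median 46869635). CPM is the count of a gene scaled to the mapped reads of its library, and 1 read was worth 0.0161 to 0.0206 CPM. Changes are given as log2FC, the edgeR log2 ratio of the later to the earlier time-point, with its standard error (SE). A gene was called in a comparison at an absolute log2FC above 1 and an edgeR FDR under 0.05, adjusted over all 15994 genes tested. Lung genes were present in every library, with *Nkx2-1* at 136 to 237 CPM and *Foxf1* at 149 to 269 CPM. Genes of the thymus, a lymphoid organ, were high in 3 of the 12 libraries. Their summed level over 10 genes was 62.6 CPM in E15.5 replicate 2 against 6.76 and 7.57 CPM in the other E15.5 libraries, and 171 and 331 CPM in P8 replicates 1 and 2 against 13.3 CPM in P8 replicate 3, while it lay between 4.68 and 9.07 CPM at E18.5 and P5. These libraries stand apart, and the comparisons of the members are given with and without them.

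All 7 members rose between E18.5 and P5, with every P5 library above every E18.5 library, as for 34.4% of all genes tested. *H2-Aa* (ENSMUSG00000036594), the α chain of the I-A molecule, is an mm10 gene at chr17:34282744-34287823. Its level was 0.888, 5.11 and 0.452 at E15.5, 0.985, 1.59 and 0.989 at E18.5, 88.2, 94.1 and 90.0 CPM at P5 and 107, 117 and 102 CPM at P8. The lowest P5 library lay 55.5 times above the highest E18.5 library. *H2-Ab1* (ENSMUSG00000073421, chr17:34257689-34269419), the β chain that pairs with it, was at 1.4, 11.03 and 1.63 at E15.5, 2.13, 1.76 and 1.56 at E18.5, 62.4, 64.4 and 68.1 CPM at P5 and 79.8, 95.5 and 73.3 CPM at P8. *H2-Eb1* (ENSMUSG00000060586, chr17:34305867-34316674), a β chain of the I-E molecule, was at 0.742, 3.97 and 0.669 at E15.5, 0.944, 1.17 and 0.989 at E18.5, 46.9, 50.4 and 48.4 CPM at P5 and 66.5, 68.4 and 58.1 CPM at P8. For all 3 chains, every P8 library also lay above every E15.5 library, as for 35.1% of all genes tested. E15.5 replicate 2 was the highest embryonic library for each of them.

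*Cd74* (ENSMUSG00000024610, chr18:60803848-60812652), the invariant chain, was at 4.12, 18.48 and 3.46 at E15.5, 6.06, 7.56 and 5.95 at E18.5, 300.3, 337 and 274 CPM at P5 and 371, 400.3 and 372 CPM at P8. It gave 41.5% to 46.0% of the summed CPM of the 7 members at E18.5 and 52.1% to 56.9% at P5. *Ciita* (ENSMUSG00000022504, chr16:10480059-10528418), the coactivator, was at 0.339, 1.08 and 0.393 at E15.5, 0.246, 0.345 and 0.403 at E18.5, 8.57, 8.82 and 8.84 CPM at P5 and 10.9, 10.96 and 10.4 CPM at P8. At E18.5 these values stood for 12, 18 and 22 reads, so the embryonic level of *Ciita* was known only coarsely. Its exons overlap those of *Dexi* on the opposite strand, and whether counting used the strand is not given in the sources used here.

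The H2-DM genes had the smallest log2FC values among the members from E18.5 to P5. *H2-DMa* (ENSMUSG00000037649, chr17:34119541-34139101) was at 2.68, 2.69 and 2.62 at E15.5, 2.96, 2.64 and 3.39 at E18.5, 16.8, 17.7 and 15.7 CPM at P5 and 21.7, 20.1 and 20.9 CPM at P8. It was the single member whose level in E15.5 replicate 2 lay within the range of the other embryonic libraries, and its exons overlap those of *Brd2* on the opposite strand. *H2-DMb1* (ENSMUSG00000079547, chr17:34153072-34160230) was at 0.888, 1.55 and 1.28 at E15.5, 0.944, 1.36 and 1.06 at E18.5, 21.7, 19.7 and 20.6 CPM at P5 and 19.2, 21.8 and 22.9 CPM at P8. Its neighbour *H2-DMb2* is a close copy, so reads could have been divided between them or lost as ambiguous.

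**Figure D1:**
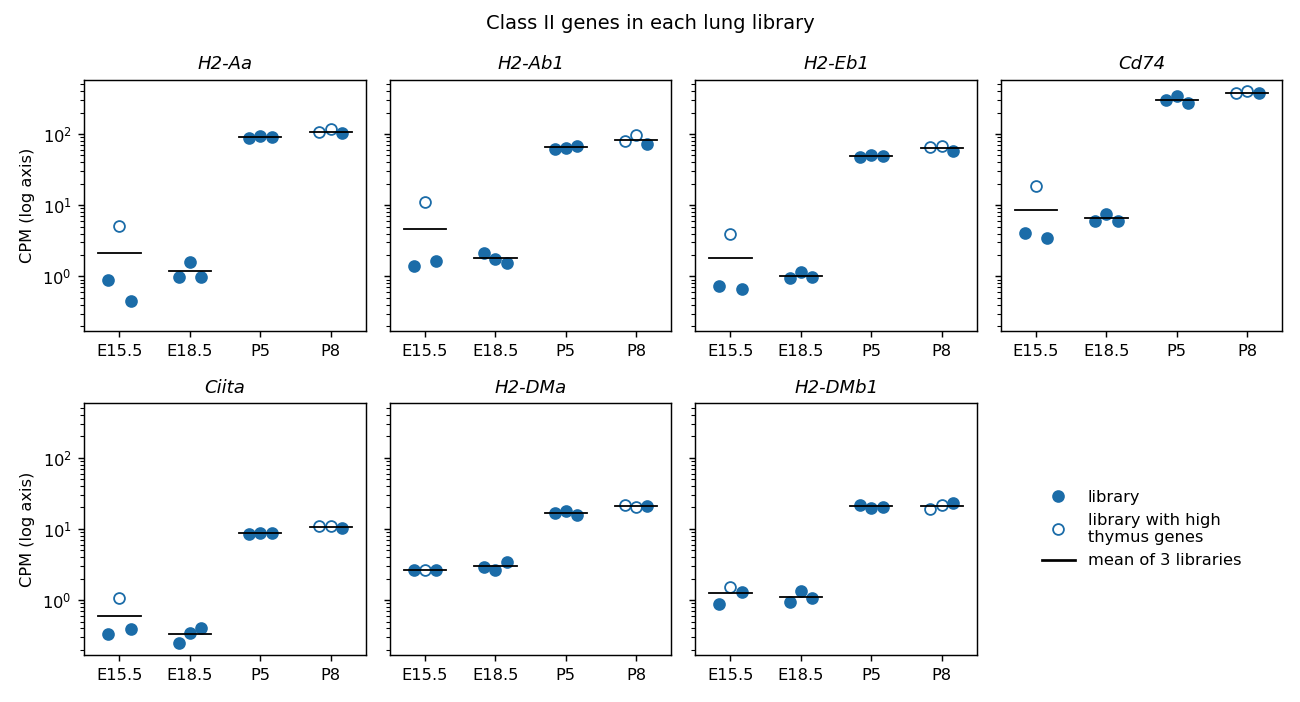
Level of each of the 7 class II genes (vertical axis, CPM on a log scale) in each library of the 4 time-points (horizontal axis). Each point is a library, open where thymus genes were high, and the bar is the mean of 3 libraries. For every gene the P5 points lie above the E18.5 points, as for 34.4% of all genes tested. The P8 points lie above the E15.5 points for every gene, as for 35.1%. The open point at E15.5 lies above the other embryonic points for 6 of the 7 genes.

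From E18.5 to P5, 7 of the 7 members were called and higher, where 17.5% of all genes tested were called and higher and 26.8% called in either direction. *H2-Aa* rose by 6.34 on the log2 scale (SE 0.60, edgeR FDR = 1.2e-06), which corresponds to 81.0-fold. *H2-Eb1* rose by 5.64 (SE 0.48, edgeR FDR = 4.8e-07), *Cd74* by 5.63 (SE 0.52, edgeR FDR = 9.0e-07) and *H2-Ab1* by 5.25 (SE 0.63, edgeR FDR = 9.6e-06). The chains and their chaperone increased 38.0-fold to 81.0-fold. *Ciita* rose by 4.79 (SE 0.36, edgeR FDR = 1.7e-07) and *H2-DMb1* by 4.29 (SE 0.19, edgeR FDR = 3.5e-09). *H2-DMa* rose by 2.57 (SE 0.11, edgeR FDR = 3.2e-09), or 5.94-fold. The median over the 7 members was 5.25, beside -0.002 over all genes tested, and 93.9% of the genes tested had a lower log2FC than *H2-DMa*. Neither E18.5 nor P5 held a library with high thymus genes. The 3 libraries with high thymus genes enter this comparison only through the gene filter, the scaling and the shared estimate of the spread. Without them the log2FC values lay between 2.58 and 6.35, and the standard error of *H2-Ab1* was 0.11 in place of 0.63.

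Between the 2 embryonic time-points none of the 7 members was called by edgeR, where 3.04% of all genes were, and 1 member (*Ciita*) had an unadjusted p under 0.05. DESeq2 called none of the 6 to which it gave an adjusted p. The direction of the difference rested on E15.5 replicate 2 for *H2-Aa*, *H2-Ab1*, *H2-Eb1*, *Cd74* and *H2-DMb1*. Without E15.5 replicate 2, the log2FC of *Ciita* stayed negative, at -0.13 in place of -0.84, and that of *H2-DMa* stayed at 0.18. Relative to the mean of the other E15.5 libraries, that library was 7.63 times higher for *H2-Aa*, 7.26 times for *H2-Ab1*, 5.63 times for *H2-Eb1*, 4.88 times for *Cd74*, 2.95 times for *Ciita* and 1.43 times for *H2-DMb1*, while *H2-DMa* was at 1.02 times. With all 12 libraries, the log2FC from E15.5 to E18.5 was -0.82 for *H2-Aa* (edgeR FDR = 0.37), -1.35 for *H2-Ab1* (FDR = 0.14) and -0.40 for *Cd74* (FDR = 0.58). Without the 3 libraries with high thymus genes, it was 0.80 for *H2-Aa* (edgeR FDR = 0.066), 0.27 for *H2-Ab1* (FDR = 0.23), 0.55 for *H2-Eb1* (FDR = 0.033) and 0.78 for *Cd74* (FDR = 0.006). Then 2 members, *H2-Eb1* and *Cd74*, were higher at E18.5 at an FDR under 0.05, as were 10.2% of genes, and none passed the fold change cutoff, as did 2.35% of genes. Without E15.5 replicate 1, by contrast, *H2-Ab1* and *Ciita* were called lower at E18.5, at -1.80 and -1.14 (edgeR FDR = 0.043 and 0.048), where 2.72% of genes were called.

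E15.5 replicate 2 also held genes of the thymic epithelium, which itself carries class II. *Foxn1*, the transcription factor of thymic epithelial cells, was at 3.15 CPM against at most 0.0646 CPM in the other embryonic libraries, *Psmb11*, a proteasome subunit of the thymic cortex, at 7.47 against at most 0.164 CPM, and *Prss16*, a thymus-specific protease, at 25.5 against at most 3.1 CPM. Of all genes tested, 26.6% were highest there among the 6 embryonic libraries, and so were 9 of the 10 thymus genes, by whose sum this library was set apart, and 6 of the 7 members. The same held for 4 of 6 T cell markers, 3 of 3 leukocyte markers, 2 of 10 dendritic cell markers, 2 of 12 macrophage and monocyte markers and 0 of 7 B cell markers. The T cell markers summed to 27.7 CPM there against 4.15 to 5.35 CPM in the other embryonic libraries, and the leukocyte markers to 73.2 against 38.8 to 49.4 CPM. *Ptprc*, which encodes the leukocyte antigen CD45, was at 6.92 CPM there against 3.02 to 3.92 CPM. The part of thymic tissue or of T cells in the class II level of this library was not tested.

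Between the 2 postnatal time-points the levels shifted little. None of the 7 members was called from P5 to P8 by edgeR, where 2.96% of all genes were, with 1 member at an unadjusted p under 0.05, and DESeq2 called none of 6. The log2FC values were 0.24 for *H2-Aa*, 0.33 for *H2-Ab1*, 0.39 for *H2-Eb1*, 0.31 for *Cd74*, 0.29 for *Ciita* and 0.30 for *H2-DMa*, with SE between 0.10 and 0.49 and edgeR FDR from 0.064 (*H2-DMa*) to 0.74, and 0.02 for *H2-DMb1* (FDR = 0.94). Every P8 library lay above every P5 library for 6 of the 7 members, all but *H2-DMb1*, where 20.8% of all genes tested were non-overlapping in this direction. The outcome of the test depended on which libraries set the spread. In a fit of the 6 postnatal libraries alone, 5 members (*H2-Aa*, *H2-Ab1*, *H2-Eb1*, *Cd74* and *H2-DMa*) were higher at P8 with an edgeR FDR between 0.013 and 0.046, as were 11.4% of genes at an FDR under 0.05, and none passed the fold change cutoff, as did 3.21% of genes. Without the libraries with high thymus genes, which leaves P8 replicate 3 alone at P8 and assumes that it varies like the other groups, the log2FC values were 0.12 to 0.30 the lowest edgeR FDR was 0.21 and none was called, where 0.573% of genes were. P8 replicate 3 was the lowest P8 library for *H2-Aa*, *H2-Ab1*, *H2-Eb1* and *Ciita*, lay between the others for *Cd74* and *H2-DMa*, and was the highest for *H2-DMb1*.

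Over the whole interval from E15.5 to P8, 7 of the 7 members were called and higher, where 20.9% of all genes tested were. The log2FC values ran from 3.05 (*H2-DMa*) to 5.76 (*H2-Aa*). Without the libraries with high thymus genes they ran from 3.06 to 7.29, with *H2-Ab1* at 5.68 in place of 4.23 and *Cd74* at 6.69 in place of 5.54, and 20.1% of genes were then called and higher.

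**Figure D2:**
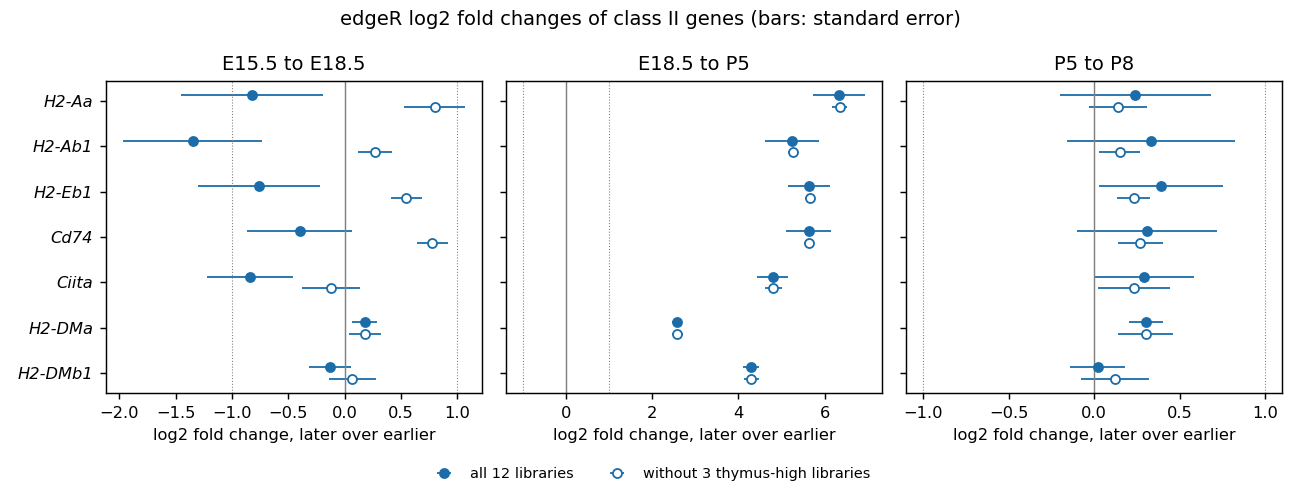
edgeR log2FC of each class II gene (horizontal axis, later over earlier time-point) in 3 comparisons, with the standard error as a bar, for all 12 libraries (filled) and without the 3 libraries with high thymus genes (open). Dotted lines mark the fold change cutoff. From E18.5 to P5 both fits give the same values within 0.02, whereas from E15.5 to E18.5 *H2-Aa*, *H2-Ab1*, *H2-Eb1*, *Cd74* and *H2-DMb1* lie on opposite sides of 0.

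The members differed in level from each other, given here per kilobase of all annotated exons of a gene. These may exceed the transcripts expressed, so comparisons between genes depend on that length, which the spread between libraries does not cover. Per kilobase of annotated exon, *Cd74* was at 181 ± 19.0 CPM at P5 (SD, n = 3), above the chains. *H2-Ab1* at 25.3 ± 1.13, *H2-Eb1* at 25.0 ± 0.89 and *H2-Aa* at 23.9 ± 0.793 CPM per kilobase did not differ beyond their spread. *H2-DMb1* followed at 12.3 ± 0.584, *H2-DMa* at 4.86 ± 0.288 and *Ciita* at 0.917 ± 0.0155 CPM per kilobase. This order of the groups was also seen at P8, with *Cd74* at 227 ± 9.89 and *Ciita* at 1.13 ± 0.0311 CPM per kilobase. At E18.5 *H2-DMa* was at 0.869 ± 0.109 CPM per kilobase and *H2-Ab1* at 0.708 ± 0.114, so that only *Cd74*, at 3.88 ± 0.537, stood above the rest.

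The balance of the α and β chains also shifted. The ratio of *H2-Aa* to *H2-Ab1* CPM was 0.277 to 0.902 in the 6 embryonic libraries and 1.22 to 1.46 in the 6 postnatal libraries, without overlap. In the embryonic libraries the *H2-Aa* value rested on 23 to 260 reads. The ratio of *H2-Ab1* to *H2-DMa* was 0.459 to 0.722 at E18.5 and 3.63 to 4.33 at P5, and in E15.5 replicate 2 it was 4.09 against 0.524 and 0.624 in the other E15.5 libraries. Relative to *Ptprc*, which all leukocytes carry, *Cd74* went from a ratio of 1.94 ± 0.385 at E18.5 to 6.05 ± 1.64 at P5. At P8 it was 4.29 ± 0.747 (SD, n = 3 at each time-point). The P8 ratio was 4.04 and 3.7 in the libraries with high thymus genes. In P8 replicate 3 it was 5.13, within the P5 range of 4.93 to 7.93. These ratios are descriptions and were not tested.

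Other class II genes moved in the same direction from E18.5 to P5. Of the 5 listed (*H2-DMb2*, *H2-Oa*, *H2-Ob*, *H2-Eb2* and *H2-Ea-ps*), 3 were tested. All 3 were called and higher (median log2FC 3.01), where 17.5% of all genes tested were. *H2-Ob*, the β chain of H2-DO, which restrains H2-DM in B cells, was at 0.144, 0.0574 and 0.201 CPM at E18.5, then 4.95, 3.78 and 6.0 CPM at P5 (log2FC 5.25, SE 0.46, edgeR FDR = 5.6e-07). *H2-Oa*, its α chain, was at 0.246, 0.0574 and 0.0732 CPM at E18.5, then 0.851, 0.991 and 1.04 CPM at P5 (log2FC 3.01, SE 0.69, edgeR FDR = 0.0017). *H2-DMb2* was at 1.25, 0.727 and 0.897 CPM at E18.5, then 3.32, 4.52 and 4.88 CPM at P5 (log2FC 2.23, SE 0.33, edgeR FDR = 6.3e-05), a smaller change than that of *H2-DMb1*, although the difference between these copies was not tested. At P8, *H2-Oa* was at 1.64 and 2.34 CPM in the libraries with high thymus genes and 0.477 CPM in the third, and *H2-DMb2* at 5.54, 7.81 and 3.9 CPM, so both were highest where thymus genes were highest. *H2-Ea-ps*, the α chain partner of *H2-Eb1* that C57BL/6 mice are known not to express, had 0 reads in all 12 libraries. There, 3 reads would be 0.0482 to 0.0619 CPM. The *H2-Eb1* values are thus RNA levels and do not show that an I-E molecule was formed.

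The factors that bind class II promoters were not higher at P5. Of the 7 tested (*Rfx5*, *Rfxap*, *Rfxank*, *Nfya*, *Nfyb*, *Nfyc* and *Creb1*), none was called from E18.5 to P5, and the median log2FC was -0.41. All 7 nevertheless had an edgeR FDR under 0.05 with a lower level at P5, from -0.24 (*Nfyc*, FDR = 0.0036, and *Creb1*, FDR = 0.011) to -0.79 (*Rfxap*, FDR = 3.4e-06), with *Nfyb* at -0.72, *Rfx5* at -0.54, *Nfya* at -0.41 and *Rfxank* at -0.36. An FDR under 0.05 was reached by 71.1% of all genes tested in either direction. Of all genes tested, 35.4% reached it with a higher level at P5, and the remainder of the 71.1% with a lower level, as the 7 factors did. *Rfx5*, a DNA-binding subunit of RFX, was at 17.4 ± 1.75 CPM at E18.5, then 11.2 ± 0.945 CPM at P5. Transcripts of these factors were present at E15.5, where *Rfx5* was at 17.9 ± 1.73 CPM, *Rfxank* at 12.7 ± 0.639 CPM and *Nfyc* at 72.7 ± 2.09 CPM, at the time-point at which *Ciita* was at 0.604 ± 0.414 CPM (SD, n = 3).

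Genes of interferon-γ signalling and other factors upstream of *Ciita* rose in part. Of 10 tested, 6 were called and higher from E18.5 to P5 and none lower (median 1.24). Of all genes tested, 17.5% were called and higher. *Irf4*, which acts in B cells and dendritic cells, went from 0.205 ± 0.0227 to 2.74 ± 0.634 CPM (log2FC 3.81, SE 0.43, edgeR FDR = 5.8e-06). *Spi1*, the myeloid and B cell factor PU.1, went from 4.30 ± 0.801 to 25.9 ± 2.79 CPM (log2FC 2.68, SE 0.13, edgeR FDR = 7.4e-09). The kinase *Jak1*, at 0.36, the feedback inhibitor *Socs1*, at 0.51, and the receptor chain *Ifngr2*, at 0.75, stayed under the fold change cutoff. *Ifng* itself was outside the count table and had at most 5 reads in any library.

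Class II needs endosomal enzymes, and of 7 tested 2 were called and higher from E18.5 to P5 (median 0.82). Of all genes tested, 17.5% were, so most of these enzymes gave no call and the count is not read as a result about them. *Ctss*, the cathepsin that trims the invariant chain in dendritic cells and B cells, went from 11.6, 12.2 and 13.9 CPM to 129, 89.6 and 90.4 CPM (log2FC 3.13, SE 0.16, edgeR FDR = 8.0e-09). *Ctsd*, an aspartic protease of lysosomes, rose by 1.59 (edgeR FDR = 3.4e-06). *Ctsl*, the cathepsin that does the work of *Ctss* in thymic cortical epithelium, stood at 0.89, *Ctsb* at 0.75, *Lgmn* at 0.63 and *Ctsz* at 0.25, all under the cutoff. At E15.5, *Ctsl* was at 171 CPM in replicate 2 and at 114 and 92.0 CPM in the other libraries.

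Of 5 genes for class II turnover and co-stimulation, 4 were called and higher from E18.5 to P5 (median 1.42), where 17.5% of all genes tested were. The ubiquitin ligase *March1*, which removes class II from the surface, rose by 3.30 (SE 0.25, edgeR FDR = 1.7e-07), from 0.595, 0.842 and 0.751 CPM to 7.08, 5.9 and 7.28 CPM, while its relative *March8* was at 0.36. The co-stimulatory ligands *Cd86* and *Cd80* rose by 1.70 and 1.42 and the receptor *Cd40* by 1.32 (edgeR FDR = 2.2e-05, 0.015 and 3.9e-07).

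MHC class I presentation, which serves CD8+ T cells and is open to most cells, rose over the same interval. The summed level at E18.5 was 257 to 292 CPM for the 10 class I genes and 14.3 to 16.4 CPM for the 7 members. Single class I genes did not all start higher. *Psmb8* and *Psmb9* had means of 1.98 and 2.36 CPM at E18.5, below *H2-DMa* at 3.0 CPM, and *Nlrc5* was lower still. From E18.5 to P5, where 17.5% of all genes tested were called and higher, all 10 of the 10 class I genes were. Their median log2FC was 2.35 beside 5.25 for the class II members, a pair of values that was not tested against each other. *H2-K1*, a class I heavy chain, went from 24.1, 30.2 and 19.0 CPM to 183, 155 and 176 CPM (log2FC 2.90, SE 0.16, edgeR FDR = 1.7e-08). *B2m*, the light chain, was at 127 ± 2.61 CPM at E18.5, then 318 ± 3.29 CPM at P5. *Nlrc5*, the class I counterpart of *Ciita*, was at 0.307, 0.315 and 0.256 CPM at E15.5, 0.164, 0.0574 and 0.0183 CPM at E18.5, 2.64 to 3.63 CPM at P5 and 8.33 to 9.97 CPM at P8. With 1 read worth 0.0161 to 0.0206 CPM, its E18.5 level rested on few reads, so its changes to and from E18.5 are coarse. *Nlrc5* was called lower from E15.5 to E18.5, at -1.87 (edgeR FDR = 0.015). Without the libraries with high thymus genes it was not called, with fewer libraries and a similar log2FC (-1.82, FDR = 0.051). It rose by 5.45 from E18.5 to P5 (edgeR FDR = 1.6e-07) and by 5.04 from E15.5 to P8 (edgeR FDR = 6.2e-08). It was also called from P5 to P8, by 1.47 (edgeR FDR = 0.0073). Without the libraries with high thymus genes, which leaves P8 replicate 3 alone at P8, that log2FC was 1.46.

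**Figure D3:**
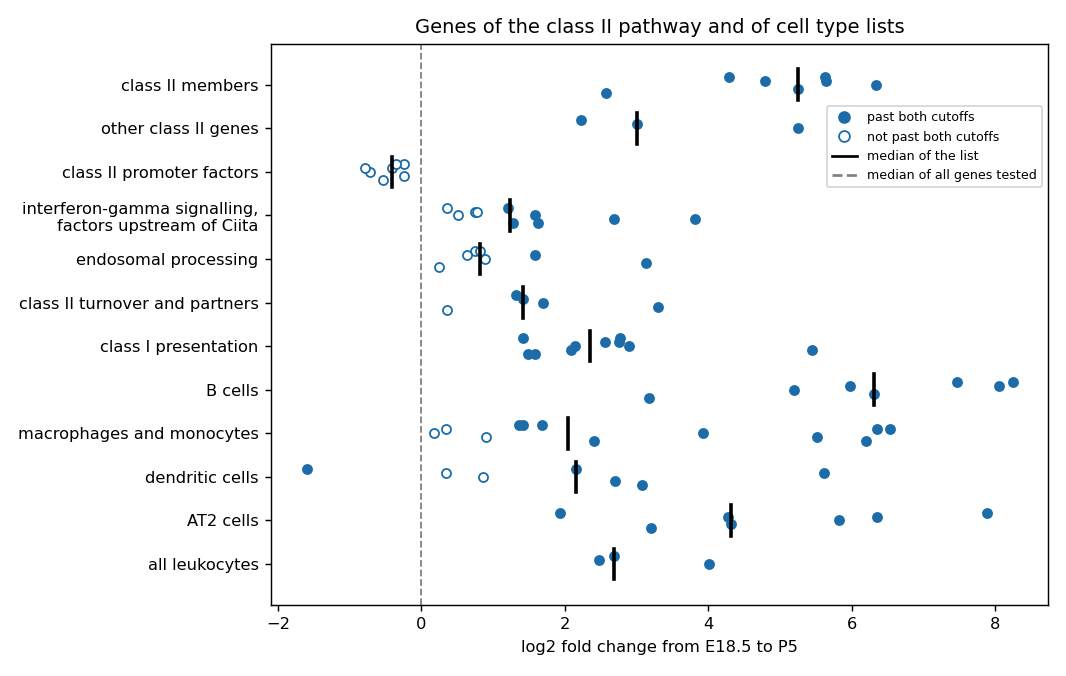
edgeR log2FC from E18.5 to P5 (horizontal axis) of each tested gene in the class II members, 6 pathway lists and 5 cell type lists (rows). Points are genes, filled where called, with the list median as a black bar and the median of all genes tested as a dashed line. The 7 promoter factors lie below 0 while all class II members lie above 2.

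The classes of cell that carry class II also had higher marker levels at P5. From E18.5 to P5, where 17.5% of all genes tested were called and higher, all 7 of the 7 B cell markers were (median 6.31). Their summed level was 2.27 to 2.55 CPM at E18.5, then 59.2 to 72.7 CPM at P5. Of 12 macrophage and monocyte markers, 9 were called and higher (median 2.04). The markers of alveolar macrophages led, with *Itgax* at 6.54, *Siglecf* at 6.35 and *Marco* at 6.20, while the complement genes *C1qa* (0.34, edgeR FDR = 0.064) and *C1qb* (0.18, FDR = 0.43), present in all libraries, were not called. Of 7 dendritic cell markers tested, 4 were called and higher and 1 lower (median 2.16). *Ccr7*, the homing receptor of migrating dendritic cells, rose by 5.61, *Flt3* by 3.07 and *Clec9a* by 2.70, and *Batf3*, a factor of cross-presenting dendritic cells, fell by 1.6 on the log2 scale (edgeR FDR = 2.3e-05).

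Of 7 AT2 markers, 6 were called and higher already from E15.5 to E18.5, where 1.59% of all genes were. From E18.5 to P5 all 7 were (median 4.32), where 17.5% of all genes were. Without the libraries with high thymus genes, 6 of 7 were again called and higher from E15.5 to E18.5. *Lamp3*, a protein of lamellar bodies also found in mature dendritic cells, was at 9.31, 6.88 and 9.32 CPM at E15.5, 23.4, 33.8 and 15.4 CPM at E18.5, then 472, 433 and 426 CPM at P5. *Sftpc*, surfactant protein C, rose by 1.16 from E15.5 to E18.5 (edgeR FDR = 0.0018, and 1.02 with FDR = 0.0053 without the libraries with high thymus genes) and by 3.20 from E18.5 to P5 (edgeR FDR = 2.7e-08). The general leukocyte markers *Ptprc*, *Coro1a* and *Laptm5* rose by 4.01, 2.68 and 2.48 from E18.5 to P5. Of 6 T cell markers 5 were called and higher, and of 4 markers of innate lymphoid cells 3. The share of each cell type in the class II level was not tested.

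**Figure D4:**
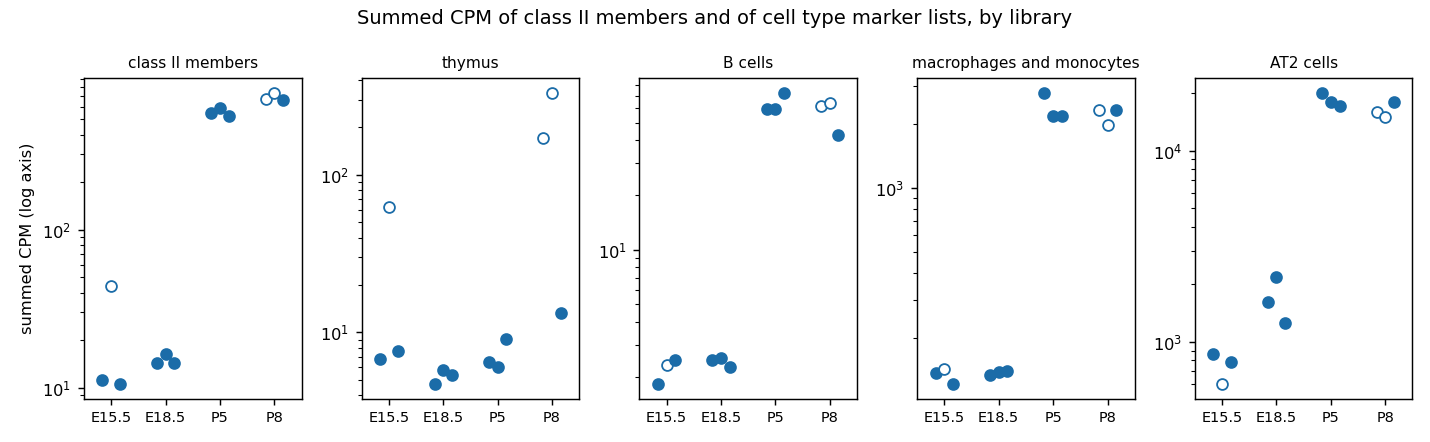
Summed CPM (vertical axes, log scales that differ between panels) of the 7 class II members and of the thymus, B cell, macrophage and monocyte, and AT2 marker lists in each library, with open points for the libraries with high thymus genes. The class II sum went from 14.3 to 16.4 CPM at E18.5 to 526 to 592 CPM at P5, and E15.5 replicate 2, at 43.9 CPM, is high for class II and thymus genes but not for B cell or AT2 markers.

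Of the 7 members, 5 lie in 1 stretch of chromosome 17 and they share it with class I genes. From E18.5 to P5, 17.5% of all genes tested were called and higher. Between chr17:34119541 and 34316674, 11 genes were tested, and all 11 were called and higher. The ends of the stretch are the members *H2-DMa* and *H2-Eb1*. All 11 are already counted in the class II and class I lists above, so this is not a separate result. Besides 7 class II genes these were *Psmb8* and *Psmb9*, subunits of the immunoproteasome, at 2.77 and 2.76, and the peptide transporter genes *Tap1* and *Tap2*, at 2.14 and 2.09. Among the class II genes of the stretch, *H2-DMb2* was at 2.23 and *H2-DMa* at 2.57, and the other 5, *H2-DMb1* included, were between 4.29 and 6.34.

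The members were like each other across the 12 libraries, with Pearson r on log2(CPM + 1) between 0.961 (*H2-Ab1* and *H2-DMa*) and 0.999. The difference between embryonic and postnatal libraries sets most of this likeness, and of 12146 other genes with a mean of at least 5 CPM, 1203 had an r above 0.95 with the mean profile of the members. The 10 most alike included *Eya2*, *Cd48*, *Emb*, *Phf11d*, *Ostm1*, *Lgals3bp*, *Wdfy4*, *Spock2* and *Il1rn*, and their r ran from 0.9946 to 0.9971. *Eya2* was at 3.49 CPM at E18.5, then 27.4 CPM at P5 on average. *Cd48*, a leukocyte surface protein, went from 1.17 to 8.13 CPM, and *Wdfy4*, which dendritic cells need for cross-presentation, from 2.99 to 23.7 CPM.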

How the data were processed

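Per the labels and the methods of the study, the authors aligned paired-end reads to mm10 with TopHat2 2.1.1 and Bowtie2 2.3.4, counted them per Gencode vM14 gene with HTSeq 0.10.0, and deposited raw counts of the 16152 genes left by a stated filter of 1 CPM in 3 samples. They also deposited CPM values (counts divided by all mapped reads) of 51825 genes, and 100% of these were whole reads within 0.01. The strand setting is not given in the sources used here. Percent spliced in values were not used here. Symbols matched 16136 of 16152 count identifiers, and positions and exon lengths are from Gencode vM21 (GRCm38).

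Here, counts were tested with edgeR 4.0.16 (glmQLFit, glmQLFTest, TMM) on R 4.3.3, in 1 fit of 12 libraries with 4 groups, on 15994 genes (1 CPM or more in 3 or more libraries), with Benjamini-Hochberg adjustment. Alternatives used DESeq2 1.42.0 and limma 3.58.1 on log2(CPM + 1). The test was checked on simulated counts. Libraries with thymus genes over 3 times the lowest of their group were left out in an alternative. Named genes were the members, all other class II genes and promoter factors, up to 6 tested genes of each other list (the 3 largest and 3 smallest changes from E18.5 to P5) and the 10 genes most like the members. *Psmb9*, *Psmb11*, *Tap1*, *Tap2* and genes outside the count table were named after their values were seen. Members and lists were chosen with earlier results of these data known. No 2 libraries of a time-point were copies (mean chi-square per gene 13.0 to 75.3). Deviations of same-numbered samples showed no shared pattern (median r 0.005 over 18 pairs). A few genes that this rule names are not reported here.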

Additional observations from a re-analysis of the deposited data

Results flagged for a closer look

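Several genes of the lists lay outside the count table, so no test covered them, and had reads in postnatal libraries above their highest embryonic level. *H2-Eb2*, a β chain gene beside *H2-Eb1*, reached 1.48 CPM (72 reads) in P8 replicate 1 and had 0 reads in every embryonic library. It was at 1.39 CPM in P8 replicate 2, and both of these libraries had high thymus genes. In P8 replicate 3 it was at 0.477 CPM, and at P5 at 0.112 to 0.871 CPM. *Ifng*, the cytokine that induces *Ciita*, reached 0.103 CPM (5 reads) in P5 replicate 2, with 0 reads in every embryonic library. *Xcr1*, a receptor of cross-presenting dendritic cells, reached 1.51 CPM (92 reads) in P8 replicate 3 against at most 0.0786 CPM in the embryonic libraries. *Cd209a* reached 0.588 CPM (36 reads) in P8 replicate 2, a library with high thymus genes, against at most 0.0821 CPM. *Siglech*, a marker of plasmacytoid dendritic cells, reached 1.31 CPM (80 reads) in the same library against at most 0.354 CPM. *Dntt*, an enzyme of developing lymphocytes in the thymus and bone marrow, reached 42.7 CPM (2613 reads) in P8 replicate 2, a library with high thymus genes, against at most 0.197 CPM.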

How the results depend on the processing

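The calls of all 7 members at P5 against E18.5 and at P8 against E15.5 were kept under every alternative run, except that DESeq2 gave *H2-Aa* no adjusted p and called the other 6. With each library left out in turn the counts of members called were 7 to 7 in both of these comparisons, 0 to 0 from P5 to P8 and 0 to 2 from E15.5 to E18.5, where 2 (*H2-Ab1* at -1.80 and *Ciita* at -1.14) were called lower without E15.5 replicate 1. Of 611 log2 fold changes under alternatives, 13 changed sign. From E15.5 to E18.5, *H2-Aa* was at 0.80, *H2-Ab1* at 0.27, *H2-Eb1* at 0.55 and *H2-DMb1* at 0.07 without the libraries with high thymus genes and without E15.5 replicate 2 alike, and *Cd74* at 0.78 and 0.79. Over all single libraries left out, this comparison gave -1.29 to 0.80 for *H2-Aa*, -1.80 to 0.27 for *H2-Ab1*, -1.16 to 0.55 for *H2-Eb1*, -0.77 to 0.79 for *Cd74* and -0.33 to 0.07 for *H2-DMb1*. From P5 to P8, *H2-DMb1* ranged from -0.04 to 0.08, and was at -0.03 without P5 replicate 2, -0.01 without P5 replicate 3 and -0.04 without P8 replicate 3. *Ciita* did not pass the filter in the fit of E15.5 and E18.5 libraries alone, which gave no value.

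Replicate numbers link no animals across time-points. With the replicate block, the members called were 0, 7, 0 and 7 in the 4 comparisons, as without it, and the calls over all genes went from 487 to 456, 4289 to 4308, 474 to 414 and 5174 to 5171. The deviations of same-numbered libraries from their group means correlated at -0.346 to 0.298 over 18 pairs (median 0.005).

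Depth limits low embryonic values, such as that of *Ciita*, which rested on 12 to 22 reads at E18.5. With 3 litter-mates per time-point, the tests carry the spread within 1 litter only.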
